A study of Mus musculus with 24 samples.

Results

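Glucose is handled by different isozymes in the hepatocyte and in most other cells, and 8 genes that hold this contrast were followed across all 24 libraries of the series. They are Slc2a2 and Slc2a1 (glucose transporters GLUT2 and GLUT1), Hk1 and Hk2 (hexokinases), Aldoa (aldolase A), Fbp1 (fructose-1,6-bisphosphatase), Pklr (liver and red cell pyruvate kinase) and Pkm (muscle-type pyruvate kinase). They were taken by symbol, and all 8 were listed in each of the 3 tables, among 31053 genes in the hepatocyte table, 25876 in the cholangiocyte table and 20729 in the Smart-Seq table. Partner genes were set against each other: Slc2a2 against Slc2a1, Pklr against Pkm, and Fbp1 against the muscle form Fbp2. Hk1, Hk2 and Aldoa were set beside other genes of their families.

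All libraries came from liver of wild-type adult BALB/c mice. The hepatocyte experiment held 3 libraries each of primary hepatocytes (Pri-Hep) and of hepatocyte organoids (Hep-Orgs) at passages P1, P5 and P10. Per the study's methods, hepatocytes were taken by Percoll density gradient and depletion of EpCAM-positive cells, and Hep-Orgs were grown in Matrigel in a medium named Hep-Med, to which dexamethasone and the Notch inhibitor DAPT were added. The cholangiocyte experiment held organoids of EpCAM-positive cholangiocytes (Cho-Orgs), with 3 libraries at each of P0, P5 and P10. The Smart-Seq experiment held Hep-Orgs picked by their shape at P0, grown in Hep-Med before these additions were introduced, 1 library of each shape (grape-like, intermediate, round-like), from amplified cDNA. The sources name the replicates both as mice and as independent cultures, so p-values measure the spread between these libraries, whatever its source.

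The liver takes up glucose in the fed state and releases it in the fasted state. In hepatocytes GLUT2, a transporter of low affinity that works in both directions, is paired with L-type pyruvate kinase, which is held by phosphorylation in fasting and whose gene answers to carbohydrate. Fbp1 catalyses the step of gluconeogenesis that opposes phosphofructokinase. GLUT1, hexokinases 1 and 2, aldolase A and the Pkm products serve glycolysis in most other cells, biliary epithelium and dividing cells included, and several of their genes are known targets of hypoxia-inducible factor and Myc.

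The promoters of 4 members are shown because they hold, or lack, the letters searched for here. These letters stand for elements through which carbohydrate and hypoxia are known to act on this pathway. The windows run from 250 bases before to 50 bases after a transcript start, in RefSeq on GRCm38.p6, and read 5′ to 3′ along the gene. Capitals mark the carbohydrate response element in the form of the liver pyruvate kinase promoter, CACGGG and CCCGTG with 5 bases between them. They also mark the core of the hypoxia response element, ACGTG. Both strands were searched, so that ACGTG on the opposite strand reads CACGT. The Pklr window belongs to the downstream start, which makes the liver enzyme.

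Pklr, chr3:89136373-89136672, plus strand: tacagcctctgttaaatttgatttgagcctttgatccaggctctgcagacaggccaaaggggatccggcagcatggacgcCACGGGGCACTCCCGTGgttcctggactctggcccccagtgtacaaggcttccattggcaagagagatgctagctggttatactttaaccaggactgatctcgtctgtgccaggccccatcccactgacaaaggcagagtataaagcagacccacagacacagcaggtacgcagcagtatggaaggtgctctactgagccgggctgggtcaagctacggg
Slc2a2, chr3:28697653-28697952, plus strand: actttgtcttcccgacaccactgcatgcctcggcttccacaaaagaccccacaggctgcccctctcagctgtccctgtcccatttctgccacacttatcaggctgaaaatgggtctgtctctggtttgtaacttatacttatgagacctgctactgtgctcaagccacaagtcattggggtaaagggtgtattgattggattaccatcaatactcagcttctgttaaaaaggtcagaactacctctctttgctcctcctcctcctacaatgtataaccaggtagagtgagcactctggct
Slc2a1, chr4:119108495-119108794, plus strand: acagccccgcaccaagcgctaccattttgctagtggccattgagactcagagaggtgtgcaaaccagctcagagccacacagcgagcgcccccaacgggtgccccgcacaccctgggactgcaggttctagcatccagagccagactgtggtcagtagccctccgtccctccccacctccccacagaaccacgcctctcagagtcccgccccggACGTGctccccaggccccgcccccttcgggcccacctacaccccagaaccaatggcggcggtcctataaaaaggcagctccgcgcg
Hk2, chr6:82774405-82774704, minus strand: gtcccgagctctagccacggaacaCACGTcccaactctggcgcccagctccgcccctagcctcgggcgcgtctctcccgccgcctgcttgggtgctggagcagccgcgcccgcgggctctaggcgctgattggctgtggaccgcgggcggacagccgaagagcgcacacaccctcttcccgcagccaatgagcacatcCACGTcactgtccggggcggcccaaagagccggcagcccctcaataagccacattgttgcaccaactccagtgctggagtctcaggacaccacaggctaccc

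The carbohydrate response element was searched only in the form of the liver pyruvate kinase promoter, so its match in Pklr was set by that choice. This exact form was found in 1 of 32851 promoters in the RefSeq table, the Pklr window above. It begins there 170 bases before the transcript start. Other forms of the element were not searched, so their absence from other promoters is not shown. ACGTG was found in 6447 promoters (19.6%), and in 6 of the 13 promoter windows listed for the members, which belonged to Slc2a1, Hk1, Hk2, Aldoa and Pkm. Both Aldoa windows that hold it overlap. It began 36 bases before the start in Slc2a1 and 226 and 52 bases before it in Hk2. The windows of Slc2a2, Pklr and Fbp1 did not hold ACGTG. The longer E-box CACGTG, which contains ACGTG, was in none of the 13 windows and in 7.15% of all promoters. Member windows that held ACGTG were 61.3% to 67.3% G or C, and those without it 48% to 65%. The median over all promoters was 52.7%, and the share of promoters with ACGTG was not adjusted for this. A match is a description of the letters only.

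Depth was 14068906 to 27160365 fragments per library in the hepatocyte table, where it could be recovered from the values. It was estimated at 37580000 to 40080000 for Cho-Orgs and 39920000 to 40560000 for the Smart-Seq libraries. Levels are given in FPKM, a count of fragments divided by gene length and library size, and the 3 tables were normalized separately and measured some genes over different lengths, so that levels are compared within a table and only set side by side across tables. Bulk libraries give the sum over all cells, and fewer cells of a type cannot be told apart from less RNA per cell.

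The label of the Pri-Hep libraries went against their markers, so they are written as the libraries labelled Pri-Hep where a direction is drawn. Of the 9 hepatocyte markers, Cyp2e1 was at 0 to 0.03004 FPKM, Apoa1 at 3.66 FPKM and Alb at 112 FPKM. Ttr, the highest of the 9, was at 409 to 429 FPKM and made up most of their sum, while the cholangiocyte markers Krt19 and Spp1 stood at 237 and 3144 FPKM. The hepatocyte marker sum was 608 to 641 FPKM in these libraries and 621 to 670 FPKM in the 9 Hep-Orgs libraries, and the cholangiocyte marker sum was 3850 to 3950 and 3800 to 4020 FPKM. Pairs of libraries from different groups of this table differed by 1.80 to 4.36 times the counting variance over genes with at least 20 fragments in the pair, and pairs from the same group by 1.90 to 3.04 times, where 1 is counting noise alone.

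In Cho-Orgs Pklr fell early and the ubiquitous isozymes fell late. Between P0 and P5 Pklr fell, whereas Slc2a1, Hk1, Aldoa and Pkm rose. Slc2a2 and Fbp1 were also lower at P5, but they reached the filter on low values only through the P0 libraries, so their difference from P0 is a description and not a finding of the test. Between P5 and P10 Slc2a1, Hk1, Hk2, Aldoa and Pkm fell, and Slc2a2, Pklr and Fbp1 did not pass the test. The question of these comparisons is how far the profile of Cho-Orgs is kept over passages.

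Changes were tested with limma on log2(FPKM + 1) over the 11593 genes that reached an FPKM of 1 in at least 3 libraries, with Benjamini-Hochberg adjustment over all of them. Slc2a2 and Fbp1 were left out of the counts that follow, since only P0 libraries brought them past the filter. At P5 against P0, 5 of the other 6 members passed the adjusted threshold of 0.05, 4 higher and 1 lower, where 56.6% of all genes tested passed, 34.0% higher and 22.6% lower. At P10 against P0, 5 of the 6 passed and all 5 were lower, where 72.3% of all genes passed, 41.0% higher and 31.3% lower. At P10 against P5, 5 of the 6 passed and all 5 were lower, against 61.5% of all genes, 31.0% higher and 30.5% lower. The share of members called is thus to be read against a table in which most genes were called. The median log2 fold change of these 6 members was 0.24 at P5 against P0, -0.56 at P10 against P0 and -0.84 at P10 against P5, and that of all genes tested was 0.06, 0.07 and 0.01.

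Slc2a2 (ENSMUSG00000027690, chromosome 3 from 28697903 to 28731359 on GRCm38, plus strand) had 4.23, 5.31 and 4.52 FPKM in the 3 P0 libraries. It had 0.0412, 0.122 and 0.0203 FPKM at P5 and 0.0918, 0.0208 and 0.0519 FPKM at P10. All 6 later libraries were below every P0 library, while P5 and P10 overlapped. These later values stand for about 4, 12 and 2 fragments at P5 and 9, 2 and 5 at P10, near a floor of 3 fragments per library, against 435 to 543 fragments at P0. The log2 fold change was -2.42 ± 0.09 (SE) at P5 against P0 (limma, adjusted p = 3.72e-08) and -0.01 ± 0.09 at P10 against P5 (adjusted p = 0.943). The pseudocount of 1 compresses this change, and with a pseudocount of 0.1 it was -4.94 at P5 against P0. Slc2a2 and Fbp1 passed the filter on low values only through the P0 libraries and so had to differ.

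Slc2a1 (ENSMUSG00000028645, chromosome 4 from 119108711 to 119137983, plus strand) had 103, 123 and 106.5 FPKM at P0. At P5 it had 123, 126 and 131 FPKM, and at P10 it had 78.2, 73.5 and 70.9 FPKM. The P10 libraries lay below all others, and the P0 and P5 libraries met at about the same level. The rise at P5 was 0.20 ± 0.07 in log2 (limma, adjusted p = 0.0354). It did not pass with the replicate number as a block (limma, adjusted p = 0.0521), with median-ratio size factors (log2 fold change 0.11, adjusted p = 0.24), with no filter (adjusted p = 0.065), with only both groups fitted (adjusted p = 0.0675), or without replicate 1 or 3 of each group (adjusted p = 0.104 and 0.275). The fall at P10 against P5 was -0.77 ± 0.07 (limma, adjusted p = 1.28e-05).

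The share of Slc2a2 in the summed FPKM of both transporters was 4.05% ± 0.10 at P0, 0.0486% ± 0.043 at P5 and 0.0729% ± 0.045 at P10 (SD, n = 3 libraries each). The log2 ratio of Slc2a2 to Slc2a1, with 1 added to each level, fell by 0.93 per passage step (two-sided exact permutation of the 9 libraries over passages, p = 0.0345, with 0.00119 the smallest p possible). Because Slc2a2 was high only at P0, this p describes the same difference and is not a separate finding. The ratio was -4.29 at P0, -6.91 at P5 and -6.16 at P10, so it did not fall from P5 to P10. At that step Slc2a2 was near its floor and Slc2a1 fell. With groups permuted within each replicate number the exact p was 0.102, and without any 1 of the replicate numbers it was 0.133.

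**Figure D1:**
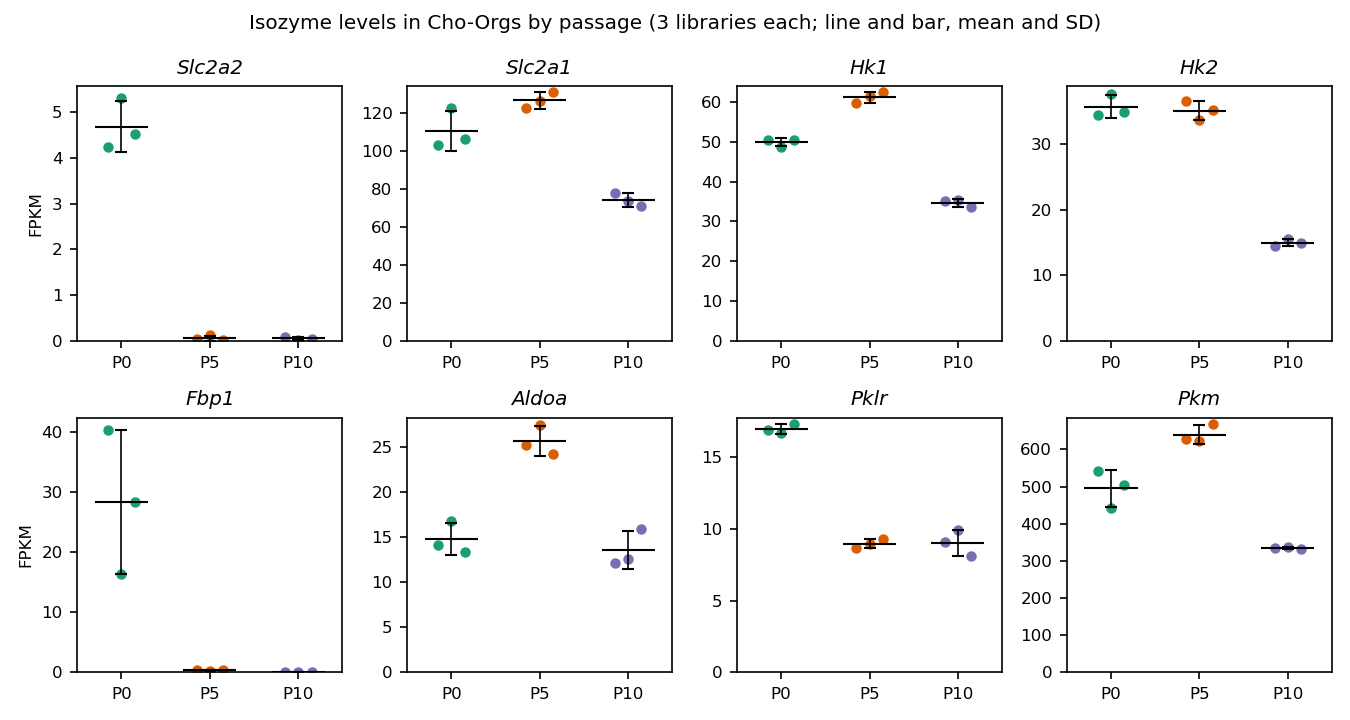
FPKM of the 8 members (vertical axes, each from 0) in Cho-Orgs at P0, P5 and P10. Points are libraries, lines and bars the mean and SD of 3. Slc2a2 and Fbp1 drop to near 0 at P5, Pklr drops from 16.9 to 8.96 FPKM, and Slc2a1, Hk1, Hk2, Aldoa and Pkm are lower at P10 than at P5.

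Hk1 (ENSMUSG00000037012, chromosome 10 from 62268855 to 62379908, minus strand), the hexokinase of most tissues, had 50.5, 48.8 and 50.5 FPKM at P0. It had 59.8, 61.5 and 62.4 FPKM at P5 and 35.2, 35.3 and 33.6 FPKM at P10, with no overlap between passages. It rose by 0.29 ± 0.04 in log2 at P5 (limma, adjusted p = 0.000369) and its change from P5 to P10 was -0.80 ± 0.04 (adjusted p = 4.87e-07).

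Hk2 (ENSMUSG00000000628, chromosome 6 from 82725025 to 82774454, minus strand), the inducible hexokinase of muscle, fat and many proliferating cells, had 34.5, 37.7 and 34.9 FPKM at P0 and 36.5, 33.7 and 35.2 FPKM at P5. It had 14.53, 15.49 and 14.98 FPKM at P10, below all other libraries. P0 and P5 overlapped (log2 fold change -0.02 ± 0.05, limma adjusted p = 0.741), and the change from P5 to P10 was -1.18 ± 0.05 (adjusted p = 1.91e-07), the largest of the 5 members that fell at this step.

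Of the summed FPKM of Hk1, Hk2, Hk3 and Hkdc1, Hk1 held 46.5% at P0, 56.2% at P5 and 65.2% at P10. Hk2 held 33.2%, 32.2% and 28.2% in the same order, and Hkdc1, a further hexokinase, 20.4%, 11.6% and 6.57%. The 4 genes summed to 108 and 109 FPKM at P0 and P5, and to 53.2 FPKM at P10. Hkdc1 fell at both steps, with a log2 fold change of -0.74 at P5 against P0 and -1.60 at P10 against P5 (limma, adjusted p = 0.000547 and 3.71e-06).

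Aldoa (ENSMUSG00000030695, chromosome 7 from 126795234 to 126800751, minus strand) had 14.1, 16.8 and 13.4 FPKM at P0. At P5 it had 25.3, 27.5 and 24.3 FPKM, and at P10 12.2, 12.7 and 16.0 FPKM. The P5 libraries lay above all others, and P0 and P10 overlapped. It rose by 0.76 ± 0.11 in log2 at P5 (limma, adjusted p = 0.000247) and changed by -0.88 ± 0.11 from P5 to P10 (adjusted p = 8.51e-05). At P10 against P0 the change was -0.12 ± 0.11 (limma, adjusted p = 0.357). Without replicate 2 it was 0.02, and without replicate 3 it was -0.29 with an adjusted p of 0.0434. The level of Aldoa is uncertain, since the genome holds near-identical copies, and how reads shared with them were counted is not given in the sources used here. It stood at 12.2 to 27.5 FPKM in this table and at 263 to 289 FPKM in the hepatocyte table, while Pkm was higher in this table than in that one.

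Aldoc, the brain-type aldolase, had 56.3 ± 4.7 FPKM at P0, 66.0 ± 2.5 at P5 and 27.4 ± 0.99 at P10 (SD, n = 3). It rose by 0.23 in log2 at P5 against P0 (limma, adjusted p = 0.0138). From P5 to P10 it fell, with a log2 fold change of -1.24 (limma, adjusted p = 4.24e-07), and at P10 against P0 it was lower by a log2 fold change of -1.01 (limma, adjusted p = 5.08e-07). The 3 passages of Aldoc did not overlap, with P5 highest and P10 lowest.

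Fbp1 (ENSMUSG00000069805, chromosome 13 from 62864753 to 62888282, minus strand) had 40.4, 16.4 and 28.3 FPKM at P0, the widest spread between P0 replicates among the members relative to the mean. It had 0.324, 0.260 and 0.471 FPKM at P5, about 16 to 29 fragments, and was listed at 0, 0.0155 and 0 FPKM at P10, about 1 fragment in the 3 libraries together. The 3 passages did not overlap. The log2 fold change was -4.36 ± 0.25 at P5 against P0 and -4.78 ± 0.25 at P10 against P0 (limma, adjusted p = 6.15e-07 and 1.09e-07). Since Fbp1 passed the filter only through the P0 libraries, these values are a description and not a finding of the test. In fragments the ratio of P0 to P10 was 5210, with an exact 95% counting interval of 935 to 206000. The step from P5 to P10 did not pass with a pseudocount of 1 (-0.42 ± 0.25, limma adjusted p = 0.16). It passed with a pseudocount of 0.1 (-2.08, limma adjusted p = 0.000231), without replicate 2 (-0.48, adjusted p = 0.0401) and when only these 2 groups were fitted (adjusted p = 0.000629).

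Fbp2, the muscle form, had 3.23 ± 2.3 FPKM at P0, 5.27 ± 0.11 at P5 and 6.67 ± 0.75 at P10 (SD, n = 3). It rose by 0.99 in log2 at P10 against P0 (limma, adjusted p = 0.00962). These groups overlapped, with 5.895 FPKM in P0 replicate 3 and 5.859 FPKM in P10 replicate 2. At P5 against P0 the change of Fbp2 did not pass (0.70, limma adjusted p = 0.0564). Fbp1 held 89.3% ± 6.4 of the summed FPKM of both genes at P0, 6.21% ± 1.7 at P5 and 0.0881% ± 0.15 at P10. Against Fbp2, the log2 ratio of Fbp1 fell by 2.88 per step, with an exact permutation p of 0.00119, the smallest this test can give. Fbp1 was high only at P0 and near its floor at P10, so this p describes the same difference and is not a separate finding.

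Pklr (ENSMUSG00000041237, chromosome 3 from 89136142 to 89146784, plus strand) had 16.9, 16.6 and 17.3 FPKM at P0. It had 8.67, 8.91 and 9.28 FPKM at P5 and 9.05, 9.90 and 8.12 FPKM at P10, so that both later passages lay below P0 and overlapped each other. The log2 fold change was -0.85 ± 0.07 at P5 against P0 (limma, adjusted p = 5.39e-06) and 0.01 ± 0.07 at P10 against P5 (adjusted p = 0.941). Unlike Slc2a2 and Fbp1, Pklr kept a level of several FPKM at P10, with 851 to 1037 fragments per library. Mlxipl, which encodes ChREBP, the factor that binds the carbohydrate response element, had 5.31 ± 0.54 FPKM at P0, 1.14 ± 0.37 at P5 and 1.66 ± 0.19 at P10, with a log2 fold change of -1.57 at P5 against P0 (limma, adjusted p = 5.71e-06).

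Pkm (ENSMUSG00000032294, chromosome 9 from 59656368 to 59679375, plus strand) was the highest member at each passage, with 542, 443 and 503 FPKM at P0. It had 627, 623 and 669 FPKM at P5 and 336, 337 and 332.5 FPKM at P10, with no overlap between passages. It rose by 0.37 ± 0.07 in log2 at P5 (limma, adjusted p = 0.0014) and changed by -0.93 ± 0.07 from P5 to P10 (adjusted p = 3.72e-06). The values are per gene, so the M1 and M2 forms, which differ by 1 exon, are not separated.

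Pklr held 3.32% ± 0.30 of the summed FPKM of both pyruvate kinases at P0, 1.38% ± 0.026 at P5 and 2.62% ± 0.24 at P10 (SD, n = 3). Pkm was thus 29.3, 71.4 and 37.3 times as high as Pklr on average. The ratio was lowest at P5 and showed no slope over the passages (-0.14 in log2 per step, two-sided exact permutation p = 0.545).

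**Figure D2:**
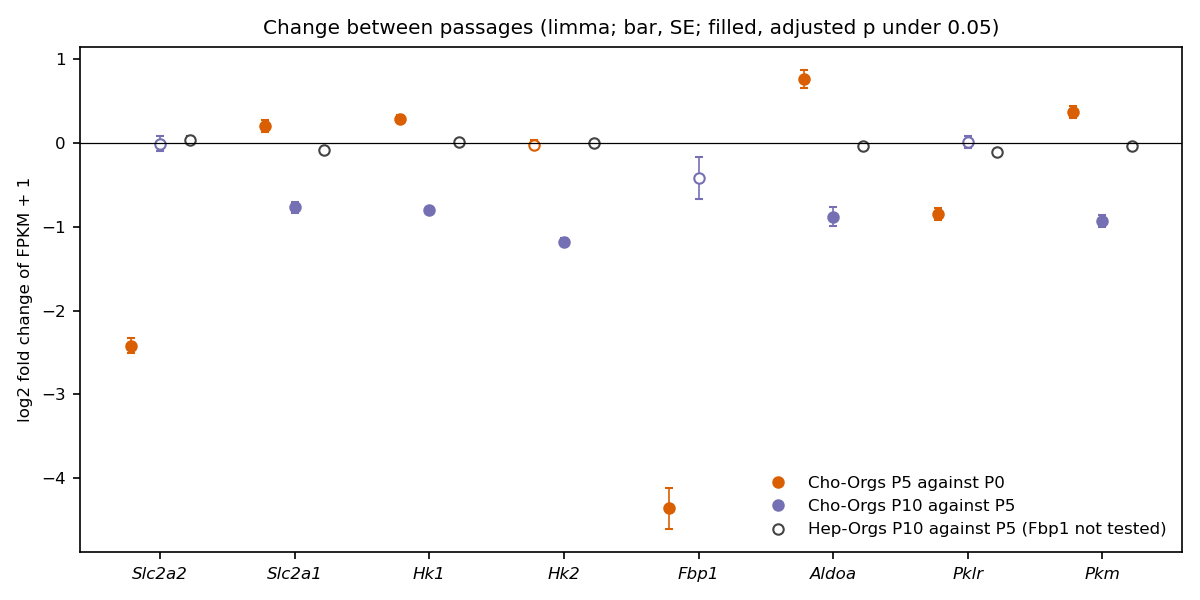
Log2 fold change of FPKM + 1 (vertical axis) of each member between passages, with the standard error. Filled points passed an adjusted p of 0.05. Those of Slc2a2 and Fbp1 at P5 against P0 are a description, since only P0 libraries brought them past the filter. In Cho-Orgs, Slc2a2, Fbp1 and Pklr were lower at P5 than at P0 and the other 5 lay near or above 0, and at P10 against P5 Slc2a1, Hk1, Hk2, Aldoa and Pkm lay between -0.77 and -1.18. The 7 members tested in Hep-Orgs lay near 0, and Fbp1 was not tested there.

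The rest of the pathway list held 53 genes, of which 43 were tested in Cho-Orgs. G6pc and Gckr passed the filter only through the P0 libraries and so had to fall from P0. They are kept in the counts and medians that follow, where their fall from P0 is a description. Pdk3, Pfkfb4 and Pgam2 were under an FPKM of 1 in each P10 library and passed the filter only through earlier passages. They are kept as well, and their fall at P10 is likewise a description. At P5 against P0, 13 rose, 14 fell and 16 did not pass, with a median log2 fold change of -0.05. At P10 against P0, 7 rose, 31 fell and 5 did not pass, with a median of -0.68, and at P10 against P5, 4 rose, 28 fell and 11 did not pass, with a median of -0.51. The median of all genes tested was between 0.01 and 0.07 in these comparisons. Of all genes tested, 34.0% rose and 22.6% fell at P5 against P0. At P10 against P0, 41.0% rose and 31.3% fell, and at P10 against P5, 31.0% rose and 30.5% fell. The counts of the list are to be read against these shares.

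Of the 16 tested genes for the common steps of glycolysis and for phosphofructokinase control, 8 rose and 4 fell at P5 against P0. The shares of all genes were 34.0% and 22.6%. At P10 against P5, 1 of the 16 rose and 14 fell, against 31.0% and 30.5% of all genes. The 14 include Pfkfb4 and Pgam2, both under 1 FPKM in each P10 library, whose fall is a description. The log2 fold changes at P10 against P0 were -1.38 for Tpi1, -1.31 for Gapdh, -1.30 for Eno2 and -1.27 for Pgam1 (limma, adjusted p at most 1.13e-05). The 1 gene that rose at P10 against P5 was Eno3, the muscle enolase (0.19, limma adjusted p = 0.0454). Gapdh has many near-identical copies, and its level is as uncertain as that of Aldoa.

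All 9 tested genes for lactate and pyruvate fell at P10 against P5 and at P10 against P0, where 30.5% and 31.3% of all genes fell. Pdk3 is among the 9, and its fall is a description, since it was under 1 FPKM in each P10 library. Ldha, which makes lactate from pyruvate, had 395 ± 23 FPKM at P0, 355 ± 7.8 at P5 and 153 ± 2.5 at P10. Slc16a3, which exports lactate, had 48.7 ± 1.8, 41.8 ± 2.0 and 10.2 ± 0.39 FPKM, and its log2 fold change at P10 against P0 was -2.15 (limma, adjusted p = 1.6e-09). Ldhb and Mpc2, a subunit of the mitochondrial pyruvate carrier, had -1.50 and -1.24 (limma, adjusted p = 1.38e-05 and 1.35e-07).

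Of the 5 tested genes of gluconeogenesis, G6pc, which releases free glucose, had 5.43 ± 2.4 FPKM at P0, 0.00778 FPKM at P5 and was listed at 0 in each P10 library. It passed the filter only through P0. Pck2, the mitochondrial form of phosphoenolpyruvate carboxykinase, moved the other way, with 23.8 ± 3.8, 48.7 ± 2.2 and 110 ± 1.2 FPKM and a log2 fold change of 2.17 at P10 against P0 (limma, adjusted p = 3.91e-08). Slc37a4 and Pcx fell and G6pc3 rose in the same comparison, by -0.59, -0.30 and 0.33.

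Among the regulators, Myc, a known activator of glycolytic genes, had 32.3 ± 1.8 FPKM at P0, 80.5 ± 1.6 at P5 and 151 ± 1.4 at P10, with a log2 fold change of 2.19 at P10 against P0 (limma, adjusted p = 6.74e-10). Hif1a fell by 0.42 on the log2 scale in the same comparison (limma, adjusted p = 6.23e-05). Of the 7 regulators tested, 2 rose and 3 fell at P10 against P0, where 72.3% of all genes passed, 41.0% higher and 31.3% lower.

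Marker sums also differed between passages, and they did not all move in the same direction as the members. The sum of the 9 hepatocyte markers was 7210 to 8140 FPKM at P0. It was 203 to 250 FPKM at P5 and 77.8 to 83.3 at P10, and Cyp2e1, Cyp3a11 and Serpina1c were at 0 in every P10 library. Alb had 4994 ± 406, 79.5 ± 12 and 0.584 ± 0.058 FPKM. Hnf4a, also among the 9, had 56.05 to 76.34 FPKM at P0 and 54.04 to 58.13 at P10. Its change at P10 against P0 was -0.18 ± 0.10 in log2 (limma, adjusted p = 0.128). The sum of the 5 proliferation markers was 155 to 236, 86.4 to 93.2 and 11.9 to 13.3 FPKM, lower at each later passage. The sum of the 5 macrophage markers was 42.2 to 48.3, 72.1 to 77.3 and 10.1 to 10.5 FPKM, highest at P5, as were the means of Slc2a1, Hk1, Aldoa and Pkm. Most of it was Cd68, with 30.4, 74.5 and 9.53 FPKM on average, and the peak at P5 was that of Cd68 alone. Lyz2 had 9.635 to 15.77 FPKM at P0 and was at 0 in each P5 and P10 library. Adgre1 had 0.1944 to 0.6192 FPKM at P0 and was at 0 at P5. Csf1r was at most 0.8866 FPKM in any library, and Clec4f was at 0 at each passage. Of the 5 stellate markers 1, Reln, reached a mean of 1 FPKM, with 69.2, 7.36 and 0.0816 FPKM, and Col1a1, Col3a1, Des and Lrat were at or under 0.284 FPKM in each library. The cholangiocyte sum was 5070 to 6500, 3490 to 3620 and 3340 to 3370 FPKM. The part of other cells and of cell division in the changes of the 8 members was not tested.

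The genes whose log2(FPKM + 1) followed each member most closely over the 9 Cho-Orgs libraries were taken by Pearson correlation, as a description with 3 passages shared by all points. For Fbp1 they were Apob (0.9991), the protein of liver lipoproteins, and Dpyd (0.9987), and for Slc2a2 Rgs5 (0.9989) and Glud1 (0.9987). For Pklr they were Cpn1 (0.9892) and Rab43 (0.9886). For the ubiquitous forms they were Slc66a3 (0.9962) and Pglyrp1 (0.9944) with Hk1, Ap1s1 (0.9982) and Chga (0.9963) with Hk2, Mfge8 (0.9947) and Aplp1 (0.9932) with Slc2a1, Bcas1 (0.9945) and Ndnf (0.9937) with Pkm, and Gmpr (0.9731) and Prdx6 (0.9728) with Aldoa.

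**Figure D3:**
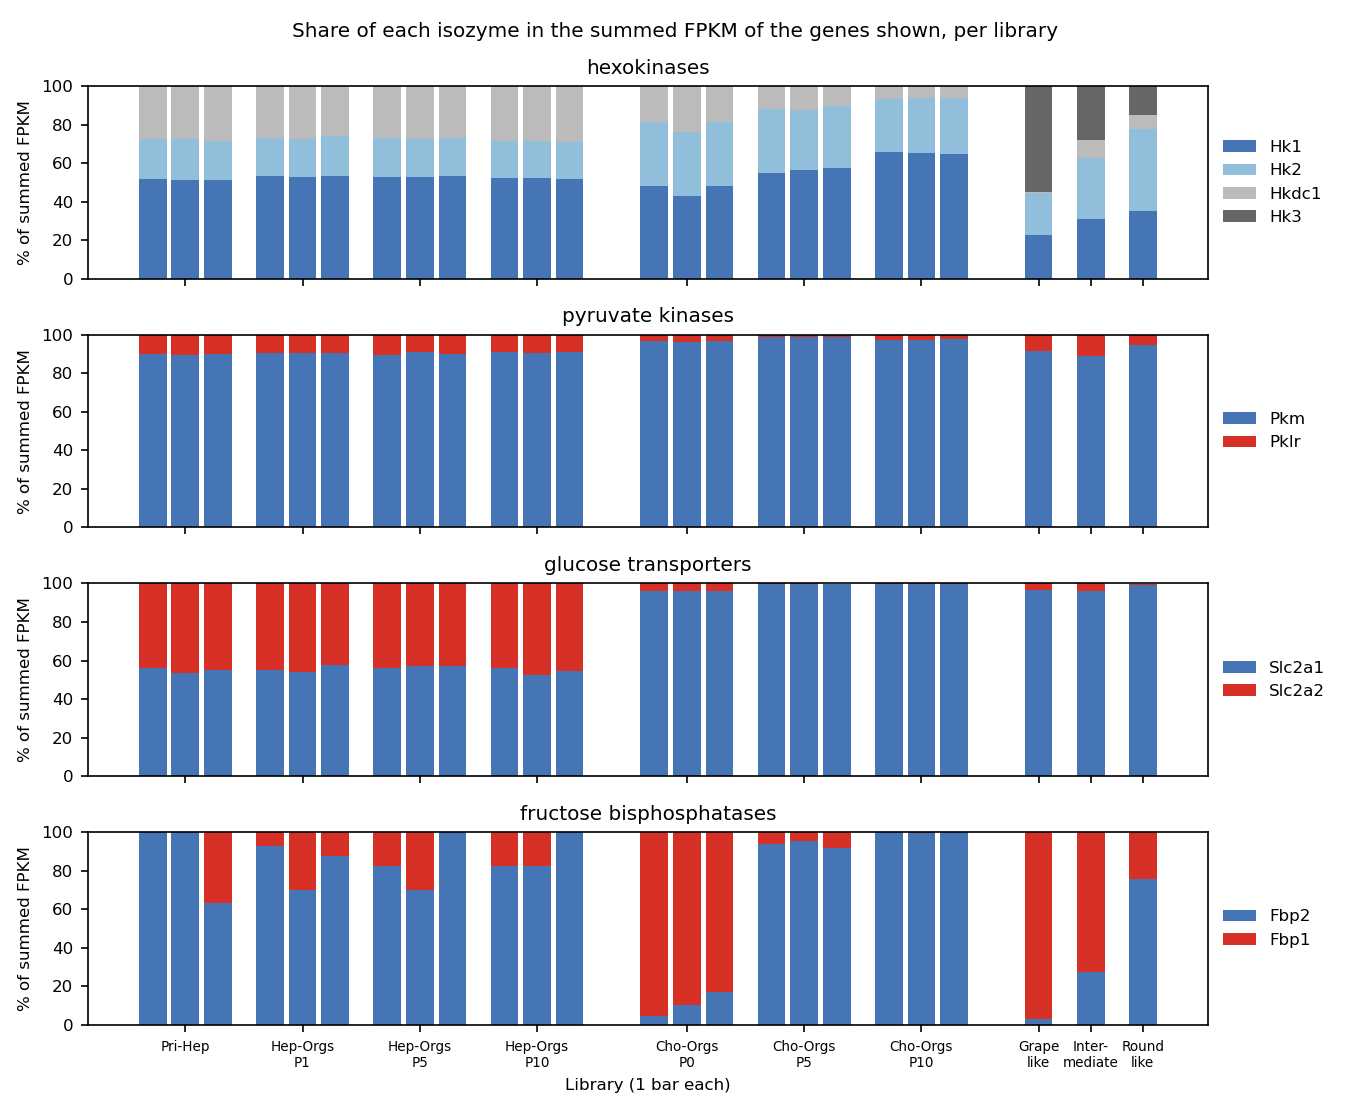
Share of each isozyme in the summed FPKM of the genes of its family that are shown (vertical axes, percent) in the 24 libraries, 1 bar each. Red marks the liver forms Pklr, Slc2a2 and Fbp1. The 12 bars of the hepatocyte table look alike within each family except the bisphosphatases, where Fbp1 rests on 0 to 2 fragments per library and Fbp2 on 2 to 12, while in Cho-Orgs Fbp1 leads at P0 and is almost absent at P10.

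In the hepatocyte experiment the 8 genes had like levels in the libraries labelled Pri-Hep and in Hep-Orgs at all 3 passages, and no difference passed the test. The question here is whether Hep-Orgs keep the expression of hepatocytes over passaging. Of the 7 members tested, 0 passed in any of 6 comparisons between the groups, and Fbp1 did not reach the filter. In these comparisons 0 to 3 of 10986 genes passed, which is 0.00910% of genes at P1 and at P5 against Pri-Hep, 0% at P10 against Pri-Hep, for all Hep-Orgs against Pri-Hep and at P10 against P1, and 0.0273% at P10 against P5, 0.0182% higher and 0.00910% lower.

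The log2 fold changes of the members in the 42 tests lay between -0.12 and 0.07, with standard errors of 0.02 to 0.04 (limma), and 8 tests (19.0%) had an unadjusted p under 0.05. Of all 10986 genes, 6.64% to 11.5% had such a p in these comparisons, which share libraries. The lowest adjusted p was 0.289, for Hk2 at P5 against Pri-Hep. With limma-voom on the recovered fragments 0 members passed as well. In data simulated for P10 against Pri-Hep 91.5% of changes of 0.5 in log2 were called, with 4 false calls among 187. The simulated noise was set beforehand and took no account of gene length or library depth. This rate thus does not show what size of change the test would call in these libraries.

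Aldoa was the highest member in this table, with 263 to 277 FPKM in the libraries labelled Pri-Hep and 266, 277 and 289 FPKM as the lowest, the median and the highest of the 9 Hep-Orgs libraries. A second gene listed as Aldoa (ENSMUSG00000114515) had 0.535 to 1.67 FPKM and was kept apart. Pkm followed with 148 to 156 FPKM and with 151, 157 and 161 FPKM in the same order. Hk1 had 16.5 to 17.3 FPKM, and 16.7, 17.1 and 17.5 FPKM in Hep-Orgs. In Hk1 the libraries labelled Pri-Hep overlapped each passage. The Pkm libraries of P1 and P5 and the Aldoa libraries of P5 lay above all 3 labelled Pri-Hep, while P10 overlapped them in both genes, and none of these differences passed the adjusted test.

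Slc2a2 and Slc2a1 stood close together. Slc2a2 had 25.8, 26.9 and 26.1 FPKM in the libraries labelled Pri-Hep, and 25.0, 26.4 and 27.7 FPKM as the lowest, the median and the highest of Hep-Orgs. Slc2a1 had 32.7, 30.8 and 32.3 FPKM and 30.4, 32.5 and 35.0 FPKM, with the P5 libraries, at 33.5 to 33.8 FPKM, above all 3 labelled Pri-Hep. Slc2a2 thus held 42.5% to 47.6% of their sum over all 12 libraries, against at most 4.14% in any Cho-Orgs library. The difference between the tables was not tested, since Slc2a2 was measured over 5755 bases in the hepatocyte table and over an estimated 2561 bases in the cholangiocyte table. The log2 ratio of Slc2a2 to Slc2a1 differed by -0.04 between Hep-Orgs and the libraries labelled Pri-Hep (two-sided exact permutation over 220 choices, p = 0.5, with 0.00455 the smallest p it can give).

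Pklr had 17.0, 16.9 and 16.7 FPKM in the libraries labelled Pri-Hep and 15.01, 16.58 and 18.01 FPKM as the lowest, the median and the highest of Hep-Orgs, and it held 9.05% to 10.3% of the FPKM of both pyruvate kinases. Against Pkm, the log2 ratio of Pklr was 0.08 lower in Hep-Orgs by the means, -3.10 in the libraries labelled Pri-Hep and -3.17, -3.14 and -3.21 at P1, P5 and P10, and the exact permutation p was 0.0591. Hk1 and Pklr overlapped in level in the libraries labelled Pri-Hep and at P5.

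Hk2 had the lowest p-values of the members. It had 7.004, 6.85 and 6.86 FPKM in the libraries labelled Pri-Hep, 6.46, 6.41 and 6.89 at P1, 6.37, 6.14 and 6.37 at P5 and 6.17, 6.38 and 6.38 at P10. The libraries of P5 and P10 lay below all 3 labelled Pri-Hep, while P1 overlapped them. The log2 fold change of all Hep-Orgs against Pri-Hep was -0.10 ± 0.03 (limma, unadjusted p = 0.00532, adjusted p = 0.393).

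The liver forms split in this table. Fbp1 had 0 to 2 fragments per library, which is at or under the floor of 3 fragments, and Fbp2 had 2 to 12. Fbp1 was thus not detectable at this depth in libraries that also held Slc2a2 and Pklr. The log2 ratio of Fbp1 to Fbp2 differed by 0.00 between Hep-Orgs and the libraries labelled Pri-Hep (two-sided exact permutation p = 0.973), which at these counts says little.

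Of the 53 other genes of the pathway, 41 were tested in the hepatocyte table and 0 passed in any of the 6 comparisons, with 4 to 8 (9.76% to 19.5%) at an unadjusted p under 0.05 in each, against the 6.64% to 11.5% of all genes given above. Hkdc1 had 8.64 to 9.67 FPKM and held 26.1% to 28.9% of the FPKM of the 4 hexokinase genes named above.

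**Figure D4:**
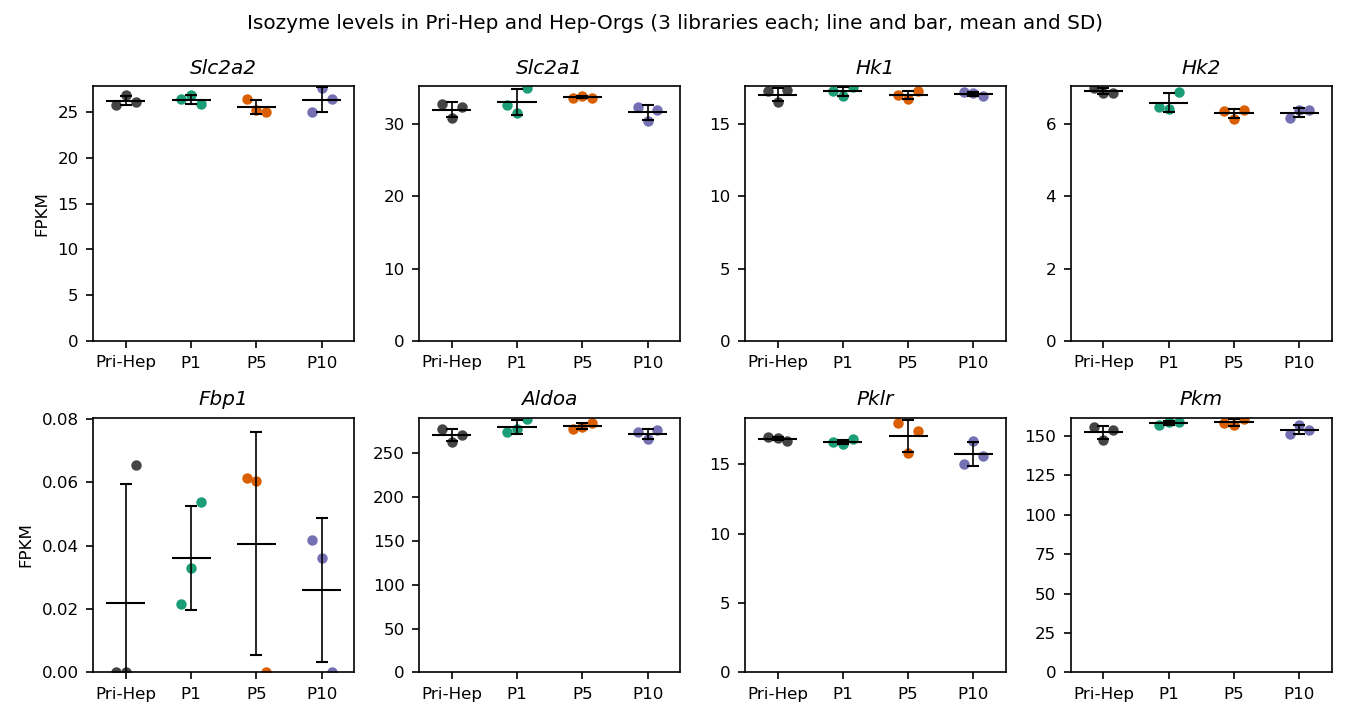
FPKM of the 8 members (vertical axes, each from 0) in the libraries labelled Pri-Hep and in Hep-Orgs at P1, P5 and P10. Points are libraries, lines and bars the mean and SD of 3. Levels are flat across the groups, with Hk2 slightly lower at P5 and P10, and Fbp1 rests on 0 to 2 fragments per library.

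In the Smart-Seq libraries, with 1 organoid shape each and no replicate, the liver forms were higher in the grape-like and intermediate than in the round-like library, and Slc2a1, Hk2, Aldoa and Pkm were highest in the round-like one. No test could be made. Intervals are 95% intervals of a log2 ratio of 2 estimated fragment counts by normal approximation, and they cover counting error only, since the cDNA was amplified.

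Values follow in the order grape-like, then intermediate, then round-like, and ratios set grape-like over round-like unless named. Slc2a2 had 0.573, 1.01 and 0.232 FPKM, with a log2 ratio of 1.31 (0.62 to 1.99). Slc2a1 had 17.6, 24.2 and 30.9 FPKM, with -0.81 (-0.88 to -0.74). Slc2a2 held 3.15%, 4.01% and 0.746% of their sum.

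Fbp1 had 14.6, 8.56 and 2.15 FPKM and a log2 ratio of 2.76 (2.50 to 3.01). Fbp2 ran the other way with 0.452, 3.22 and 6.80 FPKM. The share of Fbp1 in their sum was 97.0%, 72.7% and 24.0%. Fbp1 was the only one of the 8 members whose log2(FPKM + 1) differed by at least 1 between the grape-like and the round-like library, as did 21.8% of the 12595 genes compared, 12.9% higher and 8.82% lower. Between the intermediate and the round-like library it was 6.39% of genes, 3.85% higher and 2.54% lower, and Fbp1 was again the member past 1. Between the grape-like and the intermediate library it was 16.9%, 9.71% higher and 7.15% lower, and no member passed.

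Pklr had 11.7, 17.0 and 9.02 FPKM and Pkm had 126.5, 136 and 167 FPKM in the same order. Pklr held 8.47%, 11.1% and 5.13% of their sum, highest in the intermediate library, with a log2 ratio of Pklr in intermediate to round-like of 0.92 (0.81 to 1.02). Aldoa, uncertain for the reason given above, had 0.988, 1.03 and 1.70 FPKM.

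Hk1 had 12.9, 9.57 and 11.7 FPKM and Hk2 had 12.1, 9.69 and 14.2 FPKM, both lowest in the intermediate library. Hk3, the hexokinase of white blood cells, had 31.1, 8.55 and 5.03 FPKM and held 55.3%, 27.9% and 15.1% of the FPKM of the same 4 genes, whereas it was at or under 0.138% in each library of the hepatocyte table. Hkdc1 held 0.435%, 9.37% and 7.34%.

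The markers of other cells in these libraries were not even. The 5 macrophage markers summed to 7130 FPKM in the grape-like, 2150 in the intermediate and 1100 in the round-like library, the 5 stellate markers to 688, 190 and 197 FPKM, and the 9 hepatocyte markers to 6010, 10400 and 1400 FPKM. The cholangiocyte sum was 877, 3450 and 2830 FPKM. The 5 proliferation markers summed to 163, 147 and 295 FPKM, highest in the round-like library, as were Slc2a1, Hk2, Aldoa and Pkm. Their part in the differences between the isozymes was not tested, and with 1 library per shape, shape and library cannot be told apart.

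**Figure D5:**
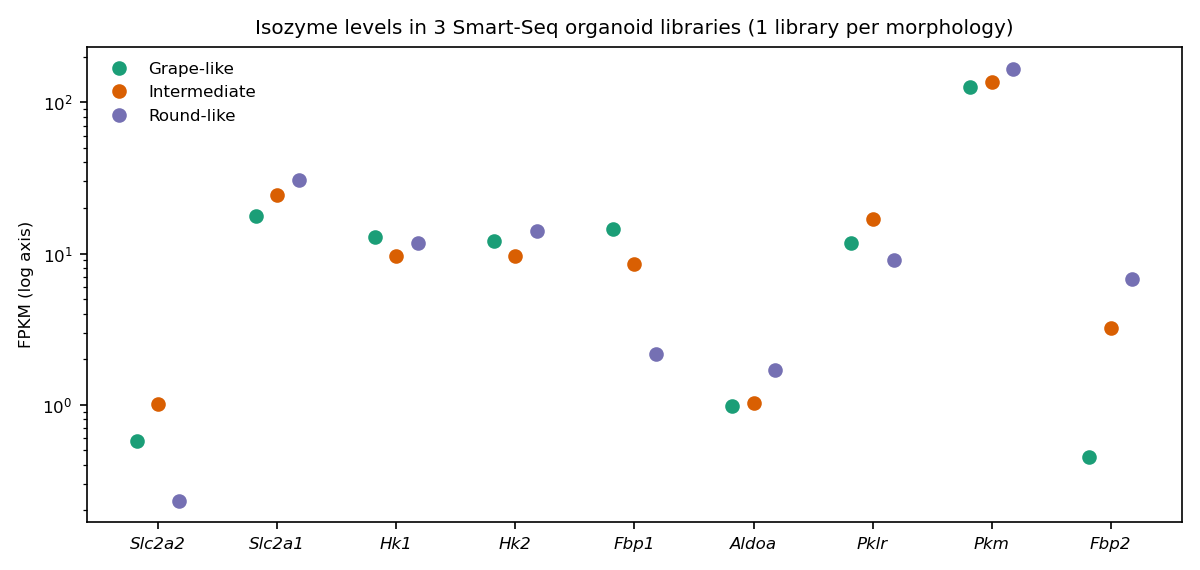
FPKM on a log axis of the 8 members and of Fbp2 in the 3 Smart-Seq libraries, 1 per organoid shape. Fbp1, Slc2a2 and Pklr are lowest in the round-like library, and Slc2a1, Pkm, Aldoa, Hk2 and Fbp2 are highest there.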

How the data were processed

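RNA was measured as poly(A) libraries of organoids and cells (21 libraries) and as amplified Smart-Seq cDNA (3 libraries). The authors deposited FPKM values per gene in 3 tables, normalized separately. featureCounts 2.0.3, edgeR 3.40.2 and the build mm10 are named in the submitters' processing notes, and the aligner and annotation are not given in the sources used here. In the hepatocyte table FPKM times the listed length gave whole fragments (tolerance 0.01) for 100% of values, and depth elsewhere was estimated as the library size at which genes with 1 annotated GENCODE transcript gave values nearest to whole fragments.

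Genes that reached an FPKM of 1 in at least 3 libraries were tested on log2(FPKM + 1) with limma 3.58.1 in R 4.3.3 over all groups of a table, with Benjamini-Hochberg adjustment over all genes and a threshold of 0.05. FPKM are not counts, so a count model (limma-voom on recovered fragments) was an alternative only. The pseudocount understates changes of low genes. Log2 ratios of 3 pairs were compared in 6 two-sided exact permutation tests, with p unadjusted. Smart-Seq groups of 1 library had no test. Intervals and the floor of 3 fragments cover counting error only. The fit was tested on simulated data.

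The text names the members, their partners and the 12 other pathway genes with the largest called change at P10 against P0. It also names genes needed for a count of 5 or fewer and genes that passed the filter only through earlier passages. For each member it names the 2 genes that correlated best. Some genes of the pathway are not reported here. Members and lists were chosen with earlier results of these data known. Alternatives were a pseudocount of 0.1, no filter, a mean FPKM of at least 5, rescaling to TPM, median-ratio size factors, no variance trend, the groups compared alone, the replicate number as a block, and leaving out each replicate number. Figures were drawn with matplotlib 3.10.9.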

Additional observations from a re-analysis of the deposited data

Results flagged for a closer look

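A single value far from the rest was searched for in 11 sets of values, where chance alone marks about 1 set in 20. The sets were the 8 members and the log2 ratios of the 3 pairs, each over the same 9 Hep-Orgs libraries of 3 passages. They are not independent, since the ratios reuse genes of the members. Libraries outside Hep-Orgs were not checked. In 1 set, 1 library stood out. Hep-Orgs P1 replicate 3 had 6.886 FPKM of Hk2, above the other 8 Hep-Orgs libraries, with a gap of 0.575 of the whole range. The cause was not tested.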

How the results depend on the processing

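The number of members called in Cho-Orgs stayed within 1.5 times under each alternative run. This number was counted over all 8 members, with Slc2a2 and Fbp1, whose calls against P0 were set by the filter. In Hep-Orgs 0 members were called in each run. Of the alternatives for the ratios and counts, 129 kept direction and side of the threshold, 4 lost the call, 1 gained it, 2 turned direction and 1 moved, and for single genes these were 741, 6, 4, 29 and 1. The 29 turns were of changes near 0 that passed no test. The cause of these changes was not tested.

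With a pseudocount of 0.1, 2 of 8 members differed by at least 1 in log2 between the grape-like and the round-like library. With a pseudocount of 1 it was 1 member, where 21.8% of all genes did so. The share of all genes was not counted with a pseudocount of 0.1, so the 2 members cannot be read against it. With the replicate block the slope of Slc2a2 to Slc2a1 was -0.929 (exact permutation p = 0.102). Samples of the same number did not deviate together (median correlation -0.00626 over 9 pairs in Cho-Orgs and -0.00155 over 18 pairs in the hepatocyte table). The block also ended the call of Slc2a1 at P5 against P0.

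Leaving out each replicate gave slopes over Cho-Orgs passages of -0.94 to -0.92 for Slc2a2 to Slc2a1. The differences in Hep-Orgs were -0.0954 to -0.0425 for Pklr to Pkm, with an exact permutation p of 0.0357 without replicate 1, and -0.0856 to 0.153 for Fbp1 to Fbp2.

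In Cho-Orgs it gave log2 fold changes of -0.0737 to 0.0464 for Hk2 at P5 against P0, -0.29 to 0.0173 for Aldoa at P10 against P0, and at P10 against P5 -0.0589 to 0.0964 for Pklr and -0.0465 to 0.0563 for Slc2a2. Against Pri-Hep it gave -0.0084 to 0.016 for Slc2a2 at P1, -0.0129 to 0.00782 for Hk1 and -0.0183 to 0.0679 for Pklr at P5, and at P10 -0.0194 to 0.022 for Hk1, -0.0203 to 0.0447 for Pkm, -0.00226 to 0.0222 for Aldoa and -0.014 to 0.0291 for Slc2a2, and -0.00754 to 0.0141 for Hk1 over all Hep-Orgs. At P10 against P1 it gave -0.029 to 0.00473 for Hk1 and -0.0236 to 0.0375 for Slc2a2, and at P10 against P5 -0.0065 to 0.0246 for Hk1 and -0.0191 to 0.0247 for Hk2.

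Rescaled to TPM, the change was 0.0204 for Hk2 at P5 against P0 and -0.00543 for Pklr at P10 against P5 in Cho-Orgs, -0.000571 for Slc2a2 at P1, -0.00438 for Hk1 and -0.0038 for Slc2a2 at P10 against Pri-Hep, and -0.00327 for Hk1 and -0.00537 for Hk2 at P10 against P5 of Hep-Orgs. With limma-voom it was -0.000769 for Hk1 at P10 against Pri-Hep, and -0.000451 for Hk1 and -0.000356 for Hk2 at P10 against P5. Limma-voom called 12 to 39 genes in 5 of the 6 hepatocyte comparisons and 0 at P10 against Pri-Hep. With median-ratio size factors the calls at P5 against P0 in Cho-Orgs were 3087 higher and 3449 lower, against 3938 and 2621.

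Depth limits Slc2a2 and Fbp1 at P5 and P10 of Cho-Orgs and Fbp1 in the hepatocyte table.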
